A study of Mus musculus with 12 samples.

Results

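Potassium channel genes were followed through 12 total-RNA libraries from brain punches of C57BL/6 mice. A member is an entry of the count table whose symbol starts with Kcn, goes on with letters and a number, and ends there or with 1 more letter. It must also reach at least 10 counts in 3 or more of the 12 libraries. Of 93 symbols of this form, 86 met the count minimum, out of 54429 entries in the table and 25475 entries that met the same minimum. They comprise pore subunits of every large potassium channel family and the auxiliary subunits whose symbols share the Kcn stem. The libraries form 4 groups of 3. Mice labelled as socially isolated early in life and group-housed mice were compared in punches labelled BLA, taken from males, and in punches labelled VTA, taken from females. All mice were of the C57BL/6 strain, and the labels name no transgene, drug or age. Region and sex change together, so a difference between BLA and VTA libraries cannot be assigned to either: they cannot be told apart. Nothing in the labels ties a library to one animal or to a pool, so every p-value below measures only the spread between libraries, which may be technical.

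Potassium channels let potassium leave the cell and so pull the membrane toward rest. Voltage-gated channels of the Kv families repolarise action potentials and set firing rate, and electrically silent Kv subunits join other pore subunits and alter their gating. KCNQ channels carry the slow M-current that muscarinic receptors close. Inward rectifiers hold the resting potential, and some of them are opened by G proteins below dopamine, opioid or GABA-B receptors. Two-pore channels carry leak current, and calcium-activated channels shape the afterhyperpolarisation. In the BLA, principal neurons are mostly glutamatergic, whereas the VTA is known for dopamine neurons, in which inward rectifiers and calcium-activated channels shape pacemaking.

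The libraries held between 28278708 and 69276892 counts each. The share of ribosomal RNA loci was 18.6% for isolated BLA library 3, 28.6% and 41.8% for group-housed BLA libraries 1 and 2, and at most 1.57% for each of the others. Levels are CPM, a gene's counts scaled to a common library size, with TMM factors over all 12 libraries. Levels of different genes are compared only after division by the merged exon length (CPM per kb). Dopamine neuron markers, 9 of 9 measured, summed to between 831 and 1738 CPM in the VTA libraries and to between 95.2 and 131 CPM in the BLA libraries. Several libraries stood apart from their groups in markers of other cells. Isolated VTA library 3 held 5383 CPM of 10 choroid plexus markers, against 864 CPM in isolated library 1 and 343 to 451 CPM in the other VTA libraries. It also held 492 CPM of 9 cortical and amygdalar glutamatergic markers, against 93.1 to 171 CPM in the other 5 VTA libraries, and none of these markers was at 0 throughout a VTA group. Isolated BLA library 1 held 3219 CPM of 10 striatal projection neuron markers, against 886 to 2173 CPM in the other BLA libraries, and the lowest glutamatergic sum of that region, 804 CPM. In group-housed VTA libraries 1 and 2, 5 hypothalamic and pituitary markers summed to 61.9 and 73.9 CPM, against 3.66 to 7.64 CPM in the other 4 VTA libraries. These high sums came from Pomc, Hcrt and Pmch. Gh and Prl went the other way, with 0, 0 and 0 counts of Gh in the group-housed and 19, 24 and 49 in the isolated VTA libraries. Prl had 4, 3 and 4 counts against 43, 49 and 161. Isolated VTA library 2 had the lowest sum of the 3 markers listed for fast-spiking interneurons, Pvalb, Gad1 and Gad2, with 229.5 CPM against 379 to 609 CPM. Gad1 and Gad2 were lowest there, but Pvalb was not. Among the 86 members, isolated VTA library 3 was the highest VTA library for 37 and isolated VTA library 1 for 26. Isolated BLA library 1 was the highest BLA library for 23 members and the lowest for 28.

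The members differed widely in abundance. All 12 libraries reached the count minimum for 76 of the 86 members. In 81 members at least 3 libraries of each region reached it, 1 member passed only through BLA and 4 only through VTA. The members just inside the minimum were Kcne3, with 10 or more counts in 4 libraries, and Kcne2, in 5 libraries. Just outside were Kcna10, which reached it in 2 libraries, and Kcnj15, in 1. Kcna7, Kcne1, Kcnj1, Kcnk16 and Kcnk18 reached it in none. In 25 members an annotated exon overlaps an exon on the opposite strand, and because the strand setting of the counting is not given in the sources used here, counts of those members may include reads of the partner gene.

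Per length, an inward rectifier led in BLA and an auxiliary subunit in VTA. Kcnj4, which encodes a strong inward rectifier of forebrain neurons, had the highest mean in BLA, 76.7 ± 10.7 CPM per kb (SD, n = 6). Kcnab2, a cytosolic beta subunit of Kv1 channels, followed at 54.4 ± 1.51 CPM per kb (SD, n = 6). Kcnf1, a silent subunit, reached 43.01 CPM per kb, Kcnd2, a pore subunit of somatodendritic A-type channels, 40.7 CPM per kb, and Kcnip3 and Kcnip2, calcium-binding partners of those channels, 39.4 and 34.1 CPM per kb. Every one of these 6 genes overlapped its neighbour in the order, Kcnj4 and Kcnab2 through group-housed BLA library 2 alone, where Kcnj4 stood at 55.3 CPM per kb.

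In VTA, Kcnab2 stood at 39.9 ± 12.4 CPM per kb (SD, n = 6), between 25.3 and 59.4 CPM per kb. Kcnj10, the main inward rectifier of astrocytes and other glia, came next at 24.4 CPM per kb, beside Kcna2, a Kv1 subunit of axons, at 24.2 CPM per kb. Kcnd2, Kcnip3 and the two-pore leak channel gene Kcnk1 followed at 21.9, 19.4 and 19.1 CPM per kb, and the ranges of these 6 genes overlapped from each to the next. Kcnj4, first in BLA, had a mean of 6.83 CPM per kb in VTA.

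**Figure D1:**
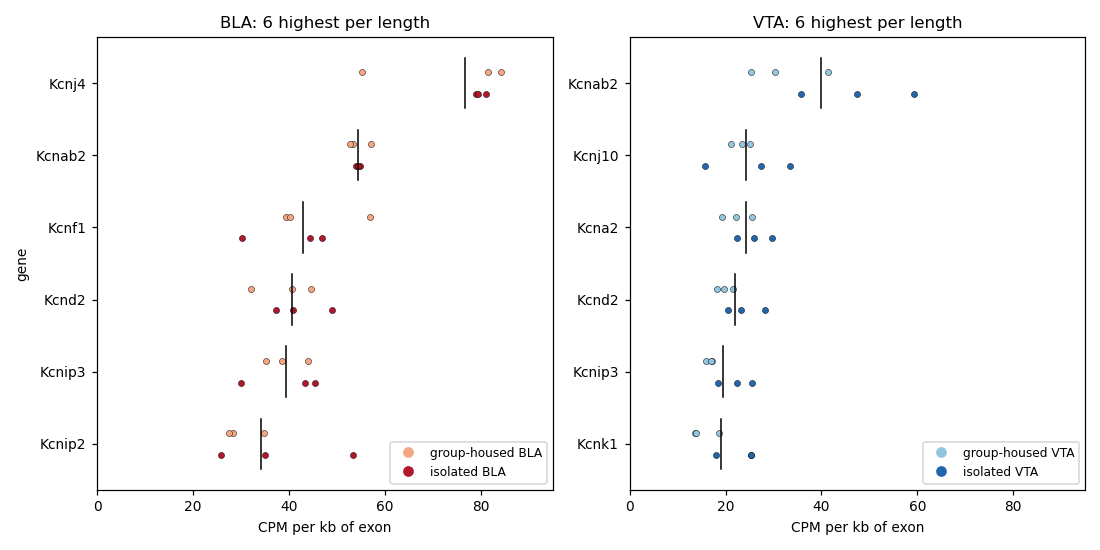
Levels per exon length of the 6 potassium channel genes highest in BLA (left) and in VTA (right). The horizontal axes are linear in CPM per kb, each point is 1 library, pale points are group-housed and dark points isolated libraries, and bars mark the mean of 6 libraries. Kcnj4 lies between 55.3 and 84.2 CPM per kb in BLA and is absent from the 6 highest in VTA.

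Summed over all members, the BLA libraries held 907 to 955 CPM per kb and the VTA libraries 462 to 667 CPM per kb, the highest VTA value belonging to isolated library 3. The families took different shares of these sums. Silent subunits made up a median of 10.8% in BLA (8.19% to 12.9%) and 4.71% in VTA (4.29% to 7.67%), with no overlap between the regions. Subunits of the EAG, ERG and ELK families (Kcnh) took 7.95% against 5.41%, and KCNQ subunits 7.22% against 5.29%, again without overlap. The reverse held for Kv1 subunits, with 10.3% in BLA and 14.3% in VTA, for Kv3 subunits of fast-firing neurons, with 4.62% and 6.81%, and for two-pore channels, with 6.33% and 9.07%. Because the VTA sums were smaller, a larger share there need not be a higher level. In the region test below, no Kv1 or Kv3 gene was called higher in VTA. Inward rectifiers took 18.3% and 18.1%, with overlapping ranges. In bulk tissue, fewer cells of a type and less RNA per cell cannot be told apart, and this holds for every level and difference given here.

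**Figure D2:**
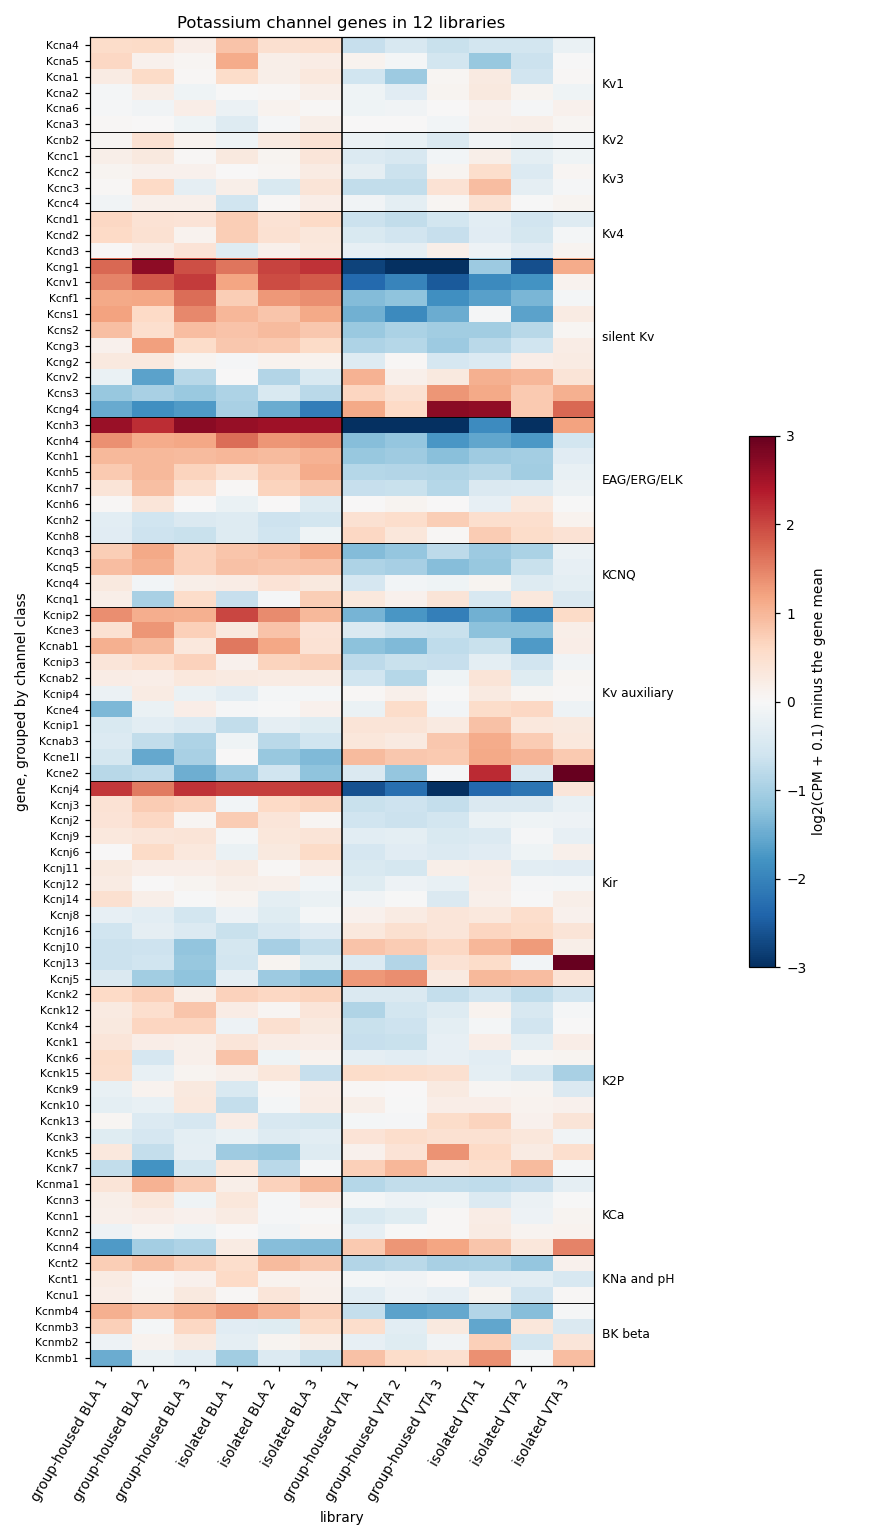
Each row is 1 of 84 potassium channel genes, grouped by family, and each column 1 of the 12 libraries. Colour gives log2(CPM + 0.1) minus the mean of the gene over the libraries, limited to between -3 and 3. Columns on the left of the vertical line are BLA and on the right VTA, and the rightmost column, isolated VTA library 3, differs from the other VTA columns in Kcnh3, Kcnj4, Kcng1, Kcne2 and Kcnj13.

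Most members differed between BLA and VTA libraries. Of the 86 members, 63 passed the test (p below 0.05 by the quasi-likelihood test of edgeR, Benjamini-Hochberg adjusted over 25009 genes), against 47.7% of all genes tested. Higher in BLA were 44 members, against 23.7% of all genes in that direction, and higher in VTA were 19, against 24.1%. At least 2-fold, the counts were 26 higher in BLA (8.29% of all genes) and 12 higher in VTA (9.04%). The libraries of the regions did not overlap for 29 members higher in BLA (12.9% of all genes) and 15 higher in VTA (14.1%). The median log2 difference of the members, BLA over VTA, was 0.40, and that of all genes tested was -0.02. Among the 81 members that reached the minimum in both regions, 43 were higher in BLA and 15 in VTA. The shares of all genes above were not restricted in this way, so these 2 counts have no matching share. Across the alternative analyses 53 of the 63 kept their call wherever the tool gave an adjusted p, and none changed direction. Without the 3 libraries rich in ribosomal RNA and isolated VTA libraries 1 and 3, the count was 54, against 31.8% of all genes tested.

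By family, the Kv pore subunits and the silent subunits carried most of the calls toward BLA. Of the 8 Kcnh genes 5 were higher in BLA and 2 in VTA, of the 5 KCNQ genes 4 were higher in BLA, and of the 10 silent subunits 6 were higher in BLA and 3 in VTA. Among the others, 2 of 3 Kv4 genes and 3 of 6 Kv1 genes were higher in BLA, and 1 of 4 Kv3 genes was. Inward rectifiers split into 6 higher in BLA and 4 higher in VTA of 13, and two-pore channels into 4 and 4 of 12. Of the 11 Kv auxiliary subunits 5 were higher in BLA and 4 in VTA. Among the calcium-activated pore subunits 2 of 5 were higher in BLA and 1 in VTA, and of their BK auxiliary subunits 1 of 4 was higher in each region. All 3 sodium- or pH-gated channel genes were higher in BLA.

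Kcnh3, an ELK channel of forebrain neurons (chromosome 15, 99224861 to 99242817, GRCm38), lay between 95.2 and 134 CPM in BLA, with a median of 122 CPM. In VTA the lowest library held 1.23 CPM, the median was 1.80 CPM and the highest, isolated library 3, held 47.3 CPM. The regions did not overlap, and the log2 difference was 4.52 ± 0.77 (SE, adjusted p = 0.0013, edgeR), or 5.72 without isolated VTA library 3. Kcnh4, of the same family, ran from 7.51 to 11.1 CPM in BLA and from 0.940 to 2.30 CPM in VTA. Its log2 difference, 2.71 ± 0.20 (SE, adjusted p = 1.23e-07, edgeR), was 2.96 without that library.

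Silent subunits gave differences in both directions. Kcng1 (chromosome 2, 168260117 to 168281736) held 23.9 to 50.8 CPM in BLA, and in VTA 0.559 to 3.63 CPM in 5 libraries and 17.02 CPM in isolated library 3. The log2 difference was 3.77 ± 0.63 (SE, adjusted p = 0.00113, edgeR) and 4.60 without that library. Kcnv1 lay between 83.4 and 157 CPM in BLA and between 6.38 and 39.5 CPM in VTA (log2 difference 3.35, 3.84 without isolated VTA library 3). Kcnf1 had a log2 difference of 2.40 (2.72 without that library) and Kcns1 of 2.06. In the other direction, Kcng4 (chromosome 8, 119623854 to 119635680) held 1.43 to 3.18 CPM in BLA and 9.68 to 42.2 CPM in VTA, with a log2 difference of -3.45 ± 0.50 (SE, adjusted p = 0.00043, edgeR). The VTA libraries spread widely for Kcng4, at 9.68, 14.1 and 42.2 CPM in the group-housed and 11.1, 21.3 and 40.4 CPM in the isolated libraries. Kcns3 was tighter, at 2.65 to 4.27 CPM in BLA and 8.19 to 15.1 CPM in VTA (log2 difference -1.86 ± 0.16, SE).

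**Figure D3:**
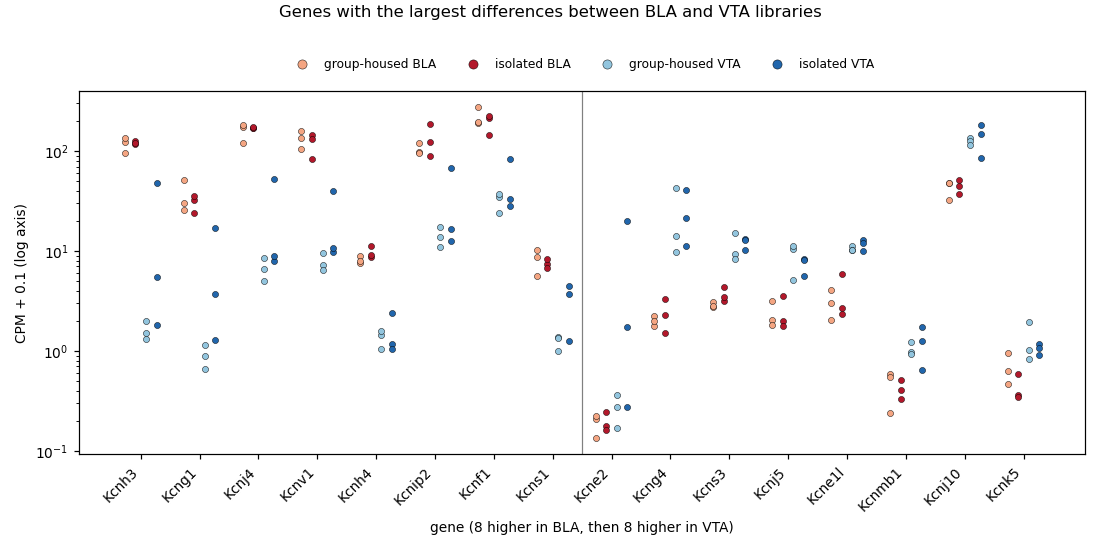
Levels in every library of the 16 potassium channel genes with the largest called differences among those with a mean of at least 1 CPM in the higher region, 8 higher in BLA (left) and 8 higher in VTA (right). The vertical axis is CPM + 0.1 on a log scale, each point is 1 library and colour gives the group. The single dark blue points near the BLA level in Kcnh3, Kcng1, Kcnj4, Kcnv1, Kcnip2 and Kcnf1 are isolated VTA library 3. Kcne2 entered the set through VTA, with 0 BLA libraries at the count minimum.

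Among inward rectifiers, Kcnj4 (chromosome 15, 79483714 to 79505241, minus strand) ran from 119 to 181 CPM in BLA, and in VTA from 4.85 to 8.78 CPM in 5 libraries and 51.8 CPM in isolated library 3. The log2 difference was 3.75 ± 0.52 (SE, adjusted p = 0.00037, edgeR), or 4.48 without that library. Its 250 bases upstream of the RefSeq start, chr15:79505242-79505491 on the minus strand of GRCm38.p6, are shown because Kcnj4 has the highest level per length in BLA; capitals mark the GC box GGGCGG on either strand.
Kcnj4 promoter: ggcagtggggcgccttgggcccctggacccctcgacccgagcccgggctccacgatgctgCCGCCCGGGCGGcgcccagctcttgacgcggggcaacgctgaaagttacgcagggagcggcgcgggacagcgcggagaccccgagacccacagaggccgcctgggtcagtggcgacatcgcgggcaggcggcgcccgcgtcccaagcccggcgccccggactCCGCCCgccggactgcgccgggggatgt
This window is 77.2% G or C and holds 3 GC box matches, against a median of 52.4% G or C over 32851 RefSeq promoter windows of the same length. Of the 86 members 62 had such a window, 87 windows in all, with a median of 58.8%. The GC box was found in 48.3% of the members' windows and 32.7% of all windows, and the TATA box TATAAA in 3.45% and 12.4%, both read on both strands. A match describes letters only.

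Kcnj10 and Kcnj16, inward rectifiers of glia, were higher in VTA. Kcnj10 held 32.5 to 51.4 CPM in BLA (median 46.5 CPM) and 84.6 to 181 CPM in VTA (median 131 CPM), so the regions did not overlap. The lowest VTA library was isolated library 3. The log2 difference was -1.59 ± 0.18 (SE, adjusted p = 4.65e-05, edgeR). Kcnj16, which pairs with Kcnj10 in glia, differed by -0.92, from 25.7 to 34.03 CPM in BLA and 50.7 to 63.6 CPM in VTA. Oligodendrocyte markers moved the same way, 6 of 6 higher in VTA, with summed levels of 2513 to 5076 CPM in BLA and 6235 to 12321 CPM in VTA. Of 6 astrocyte markers 4 were higher in VTA and 2 in BLA, and their sums were 3703 to 4109 CPM in BLA and 2451 to 3286 CPM in VTA; the part of either cell type in the Kcnj10 difference was not tested. Kcnj5, a G-protein-gated subunit, ran from 1.67 to 3.42 CPM in BLA and from 4.99 to 10.99 CPM in VTA (log2 difference -1.79).

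Kcnj9, another G-protein-gated subunit, lies 11.9 kb from Kcnj10 on chromosome 1 and is read from the opposite strand, away from it. It was higher in BLA, at 83.7 to 114 CPM against 63.6 to 85.2 CPM and an overlap of 1 library from each region, with a log2 difference of 0.58 ± 0.08 (SE, adjusted p = 4.00e-05, edgeR). The upstream windows of this pair are shown because the neighbours differ in opposite directions. They are chr1:172329323-172329572 (minus strand) for Kcnj9 and chr1:172340960-172341209 (plus strand) for Kcnj10 in GRCm38.p6, with TATAAA in capitals in the first and the GC box in capitals in the second.
Kcnj9 promoter: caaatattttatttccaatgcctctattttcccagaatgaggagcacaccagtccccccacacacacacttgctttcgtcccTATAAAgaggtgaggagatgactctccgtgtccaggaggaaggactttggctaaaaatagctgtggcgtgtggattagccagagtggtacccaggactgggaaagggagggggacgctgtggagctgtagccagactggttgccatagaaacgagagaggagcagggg
Kcnj10 promoter: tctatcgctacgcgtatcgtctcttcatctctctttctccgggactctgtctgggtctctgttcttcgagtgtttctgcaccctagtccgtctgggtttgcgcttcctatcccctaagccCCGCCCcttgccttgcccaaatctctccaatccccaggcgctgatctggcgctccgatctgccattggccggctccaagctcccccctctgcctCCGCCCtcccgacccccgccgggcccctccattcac
The Kcnj9 window holds 1 TATA box match and is 52.0% G or C, and the Kcnj10 window holds 2 GC box matches and is 62.0% G or C.

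Auxiliary subunits also went both ways. Kcnip2 held 89.5 to 185 CPM in BLA, highest in isolated library 1, and in VTA 10.9 to 17.3 CPM in 5 libraries and 67.9 CPM in isolated library 3. Its log2 difference was 2.47 ± 0.44 (SE, adjusted p = 0.00174, edgeR), or 3.05 without the latter. Kcne1l, an auxiliary subunit gene on the X chromosome (142304752 to 142306294), was higher in VTA, at 10.01 to 12.9 CPM against 1.94 to 5.85 CPM (log2 difference -1.75); with females in one region and males in the other, region and sex cannot be told apart. Kcnmb1, a BK channel beta subunit of smooth muscle, was low throughout, at 0.138 to 0.484 CPM in BLA and 0.547 to 1.65 CPM in VTA (log2 difference -1.63). Its call was lost, at a log2 difference of -0.95, without the libraries rich in ribosomal RNA and isolated VTA libraries 1 and 3. That selection also ended the call of Kcng4, at a log2 difference of -2.81. The two-pore channel gene Kcnk5 was likewise low, with a log2 difference of -1.26 and overlapping regions.

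Kcne2 had a log2 difference of -3.67 ± 1.34 (SE, adjusted p = 0.0497, edgeR), with its highest levels in isolated VTA libraries 1 and 3. It entered the set through VTA, with 5 VTA libraries and 0 BLA libraries at the count minimum, so its direction is given as a description only. The 6 BLA libraries lay between 0.0354 and 0.147 CPM and the group-housed VTA libraries between 0.0680 and 0.262 CPM. Isolated VTA libraries held 1.65, 0.174 and 20.03 CPM. Without isolated library 3 the log2 difference was -2.13, and the call was kept there and when isolated library 1 or 2 was left out. The call was lost without each of the 6 BLA or each of the 3 group-housed VTA libraries in turn (log2 differences of -3.38 to -3.92). It was also lost in limma voom, with 2 other filters on low counts, and, at -1.44, without isolated VTA libraries 1 and 3 and the libraries rich in ribosomal RNA. Kcna1, a Kv1 subunit of axons, lost its call (log2 difference 0.59) in 12 of the alternatives, Kcnu1 in 12 and Kcnj11 in 10.

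Several other channel subunit genes were higher in BLA without any overlap. The M-current subunits Kcnq3 and Kcnq5 had log2 differences of 1.79 and 1.73. Kcnma1, the BK channel pore, held 309 to 567 CPM in BLA and 152 to 228 CPM in VTA (log2 difference 1.37), and Kcnmb4, its neuronal beta subunit, differed by 2.05. By contrast, Kcnk9, an acid-sensitive leak channel, had a log2 difference of 0.00, Kcna6 of 0.02 and Kcna2 of 0.04. The ERG channel gene Kcnh2 was higher in VTA, at 38.1 to 59.1 CPM against 23.001 to 28.4 CPM (log2 difference -0.96).

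Genes known from particular cell types did not all follow the markers of those cells. Kcnj6, the G-protein-gated subunit prominent in dopamine neurons, held 24.4 to 41.9 CPM in BLA and 19.96 to 31.2 CPM in VTA, with overlap, and was higher in BLA by 0.53 on the log2 scale (adjusted p = 0.00502, edgeR). Kcnn3, the small-conductance calcium-activated channel of dopamine neurons, was also higher in BLA, by 0.31, but lost its call, at 0.15, without the libraries rich in ribosomal RNA and isolated VTA libraries 1 and 3. Kcnip3 was higher in BLA by 1.03, without overlap. Kcnd3, the A-type pore subunit paired with it in dopamine neurons, did not pass the test (log2 difference 0.27, adjusted p = 0.0977, edgeR), at 89.6 to 152 CPM in BLA and 90.1 to 129 CPM in VTA. Of the 9 dopamine neuron markers 8 were higher in VTA, with a median log2 difference of -5.43 over the list. Kcnj8, a pericyte channel, and Kcnk13, a microglial channel, were higher in VTA by 0.58 and 0.54 (log2 differences -0.58 and -0.54), while 5 of 6 microglial markers were higher in BLA. Endothelial and pericyte markers summed to 238 to 257 CPM in BLA and 269 to 364 CPM in VTA. Kcnk13 lost its call, at -0.47, without those same libraries. Kcnc1, a Kv3 subunit of fast-spiking neurons, was higher in BLA by 0.40, with overlap. The markers listed for fast-spiking interneurons summed to 561 to 879 CPM in BLA and 230 to 609 CPM in VTA. Pvalb, 1 of them, went the other way, with 146 to 1425 counts in BLA and 1244 to 4323 in VTA.

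In the VTA comparison no member passed the test. The question was whether channel expression differed between isolated and group-housed females. Of 85 members tested none was called, against 0.00415% of all 24082 genes (quasi-likelihood test of edgeR, Benjamini-Hochberg adjusted). Unadjusted p-values were below 0.05 for 10 members, against 18.3% of all genes: 8 above 0 (8.73% of all genes) and 2 below (9.58%). DESeq2 called 3 members, Kcnj2 and Kcne2 higher and Kcnt1 lower, where it called 2.01% of all genes, and limma voom called 0. Without isolated VTA library 2 edgeR called 4 members, Kcnip3, Kcnk1 and Kcns1 higher and Kcnt1 lower, and 4.81% of all genes. Isolated and group-housed libraries did not overlap for 12 members higher in the isolated libraries (17.4% of all genes) and 2 lower (11.6%). The fold change was above 0 for 67 members and below 0 for 18, with a median of 0.19, where all genes had a median of -0.00 and 49.8% above 0. Without isolated libraries 1 and 3 the median was 0.036, with 49 members above 0. Without group-housed libraries 1 and 2, an alternative chosen after seeing the data that leaves 1 group-housed library, 0 members were called and the median was 0.16. It was 0.077 and 0.074 with the choroid plexus or the glutamatergic markers as a covariate.

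**Figure D4:**
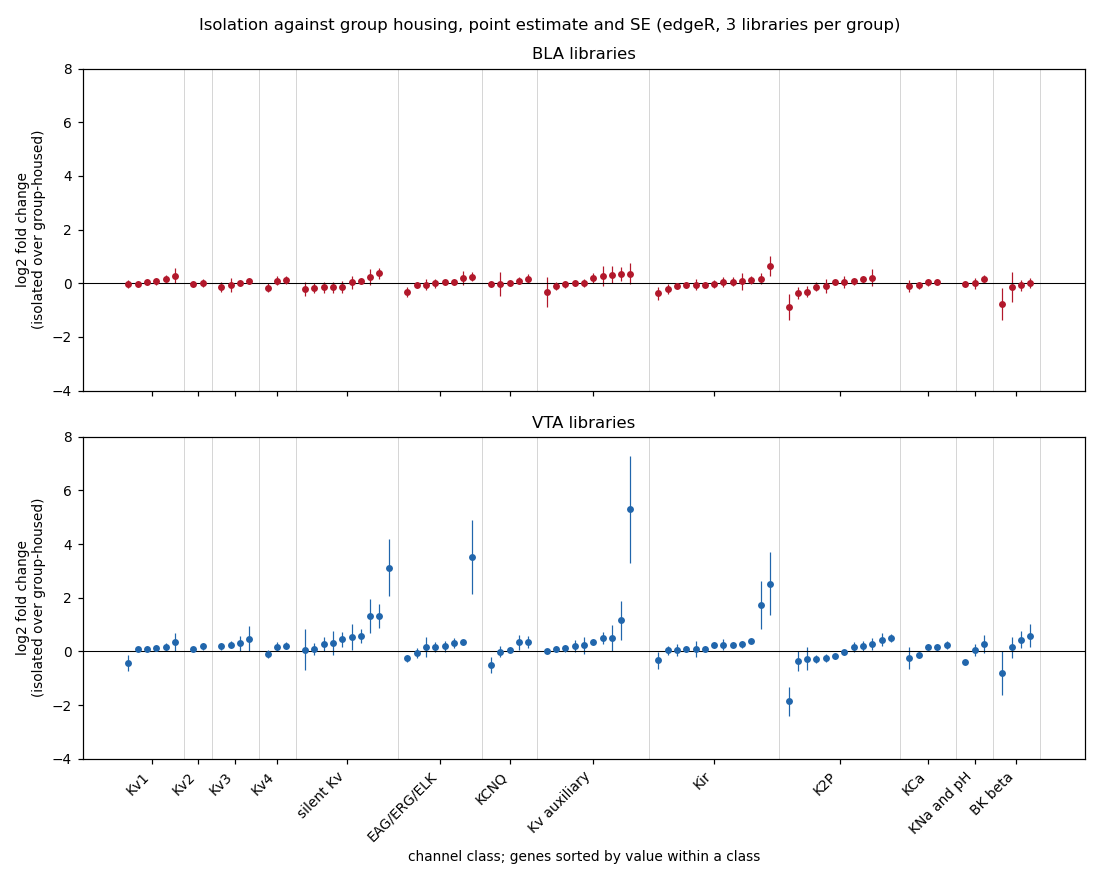
Log2 fold change, isolated over group-housed, of every tested potassium channel gene in BLA (above, 81 genes) and VTA (below, 85 genes), with bars for the standard error. Genes are grouped by family along the horizontal axis and sorted by value within a family. No gene passed the test in either panel, and the 5 VTA points above 1.5 are Kcne2, Kcnh3, Kcng1, Kcnj13 and Kcnj4.

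Kcnt1, which encodes the sodium-activated potassium channel Slack, had the smallest p of the members in VTA (chromosome 2, 25863734 to 25918273). The isolated libraries held 89.1, 90.1 and 80.97 CPM and the group-housed libraries 108, 105 and 114 CPM. All isolated values lay below all group-housed values, with a log2 fold change of -0.39 ± 0.08 (SE, adjusted p = 0.236, edgeR). Kcnj2, a strong inward rectifier, held 28.9, 30.3 and 29.8 CPM in the isolated and 21.8, 21.1 and 22.3 CPM in the group-housed libraries. Here every isolated value lay above every group-housed value, with a log2 fold change of 0.39 ± 0.08 (SE, adjusted p = 0.236, edgeR). Both values changed little with the libraries used, from -0.43 to -0.30 for Kcnt1 and from 0.36 to 0.45 for Kcnj2 when isolated libraries were left out singly or 1 and 3 together.

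Other members with small p-values gave less even values. Kcnh7, an ERG channel, held 79.4, 79.8 and 93.5 CPM against 65.6, 67.1 and 58.7 CPM (log2 fold change 0.34). Kcnj3, the common partner in G-protein-gated channels, held 58.8, 58.8 and 68.05 CPM against 49.8, 51.5 and 48.3 CPM (0.26). For both, the isolated libraries lay above the group-housed ones, and library 3 was the highest. Kcnip3 had a log2 fold change of 0.34, which was 0.11 without isolated libraries 1 and 3, and Kcnk1 of 0.51, which was 0.20 without them. Kcns1 held 3.59, 1.14 and 4.40 CPM against 1.29, 0.900 and 1.25 CPM (log2 fold change 1.33), so isolated library 2 lay within the group-housed range, and the value was -0.03 without libraries 1 and 3. Kcnk15 was near the detection limit, with 5, 7 and 2 counts against 19, 16 and 22 (log2 fold change -1.86). Kcnh2, Kcnk3, Kcnk9 and Kcnk2, the other members with the smallest p below 0, had log2 fold changes between -0.27 and -0.17 and overlapping groups.

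The largest fold changes in VTA came from isolated library 3. Kcnh3 held 5.42, 1.70 and 47.3 CPM in the isolated libraries and 1.42, 1.90 and 1.23 CPM in the group-housed ones, a log2 fold change of 3.52 that was 1.16 without library 3 and 0.15 without libraries 1 and 3. Kcng1 held 3.63, 1.18 and 17.02 CPM against 1.05, 0.782 and 0.559 CPM, with values of 3.12, 1.52 and 0.55 in the same order. Kcnj4, at 1.73, was 0.30 without library 3, Kcnv1, at 1.32, was 0.36, and Kcnip2, at 1.15, was 0.02. In library 3 these 5 genes stood at 31.3% to 57.4% of their BLA means. Library 3 was also the highest VTA library for all 8 of the genes most raised in BLA. The 9 glutamatergic markers summed to 171, 120 and 492 CPM in the isolated and to 93.1 to 96.1 CPM in the group-housed VTA libraries. Their part in these fold changes was not tested beyond the fits without those libraries and the fit with these markers as a covariate.

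**Figure D5:**
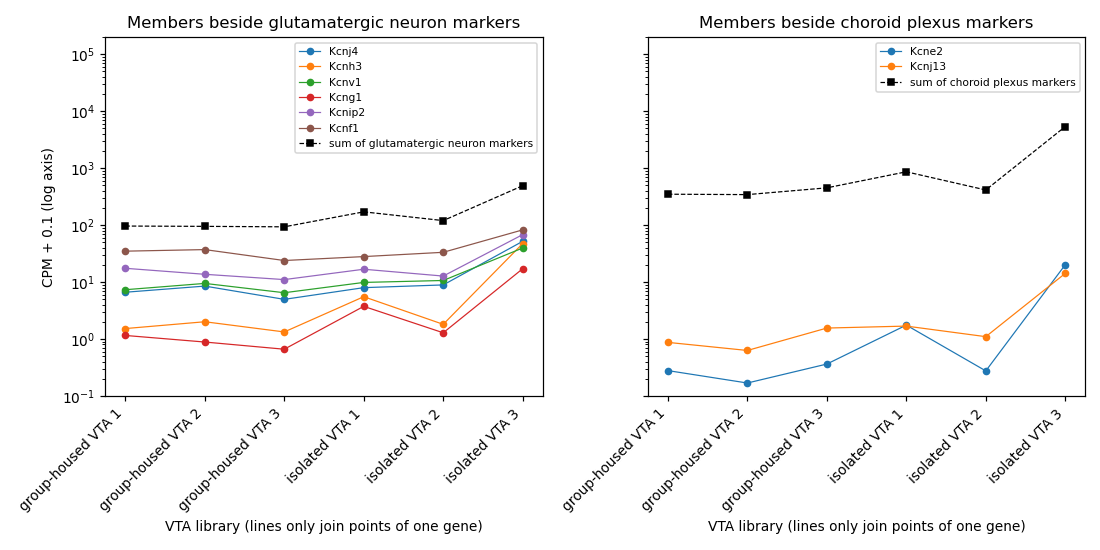
Levels in the 6 VTA libraries of 6 potassium channel genes beside the sum of 9 glutamatergic markers (left) and of Kcne2 and Kcnj13 beside the sum of 10 choroid plexus markers (right). The vertical axes are CPM + 0.1 on a log scale, each point is 1 library, and lines only join points. Isolated library 3 is the highest point of every line.

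Kcne2 and Kcnj13 are both known from the choroid plexus, where they serve ion transport into the cerebrospinal fluid. Kcne2 held 1.65, 0.174 and 20.03 CPM in the isolated and 0.178, 0.0680 and 0.262 CPM in the group-housed VTA libraries, a log2 fold change of 5.29 ± 1.99 (SE, adjusted p = 0.271, edgeR). Kcnj13 held 1.58, 0.995 and 14.1 CPM against 0.769, 0.527 and 1.45 CPM, a log2 fold change of 2.52 ± 1.18 (SE, adjusted p = 0.319, edgeR). Without libraries 1 and 3 the fold changes were -0.01 and 0.08. Ttr, the most abundant choroid plexus marker, held 205, 2.70 and 3108 CPM in the same isolated libraries and at most 0.892 CPM in the group-housed ones. With the choroid plexus markers as a covariate the log2 fold change of Kcne2 was 0.19, and with the glutamatergic markers it was -0.18. Both marker sums were highest in isolated library 3, and the part of either list was not tested further. The upstream windows of both genes are shown because they varied together with the choroid plexus markers. They are chr16:92292139-92292388 and chr16:92295366-92295615 (plus strand) for the 2 starts of Kcne2, the second inside an intron of the first transcript. For Kcnj13 the window is chr1:87394730-87394979 (minus strand), inside an intron of Gigyf2, which is read from the other strand. Capitals mark the GC box and TATAAA.
Kcne2 first promoter: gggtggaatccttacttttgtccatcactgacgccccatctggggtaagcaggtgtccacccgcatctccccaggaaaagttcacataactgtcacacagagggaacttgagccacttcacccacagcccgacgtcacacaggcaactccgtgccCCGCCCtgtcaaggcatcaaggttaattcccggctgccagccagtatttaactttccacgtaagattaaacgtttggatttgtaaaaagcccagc
Kcne2 second promoter: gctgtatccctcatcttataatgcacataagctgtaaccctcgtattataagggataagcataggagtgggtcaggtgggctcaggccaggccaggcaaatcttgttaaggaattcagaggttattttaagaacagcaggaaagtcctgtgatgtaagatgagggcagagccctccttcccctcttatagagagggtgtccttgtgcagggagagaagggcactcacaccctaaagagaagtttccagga
Kcnj13 promoter: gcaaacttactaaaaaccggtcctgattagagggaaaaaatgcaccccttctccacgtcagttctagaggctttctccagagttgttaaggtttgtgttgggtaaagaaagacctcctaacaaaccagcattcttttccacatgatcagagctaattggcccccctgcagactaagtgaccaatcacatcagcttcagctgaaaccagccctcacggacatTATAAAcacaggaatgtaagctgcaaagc
The first Kcne2 window holds 1 GC box match, the second neither motif, and the Kcnj13 window 1 TATA box match. G or C make up 52.4%, 48.0% and 45.2% of them. Annotated exons of Kcnj13 and Gigyf2 overlap over 623 bases, so low Kcnj13 counts may include Gigyf2 reads.

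In the BLA comparison no member passed the test either. It asked the same of males. Of 81 members tested none was called, against 0% of all 22110 genes, and none had an unadjusted p below 0.05, against 1.99% of all genes (quasi-likelihood test of edgeR, Benjamini-Hochberg adjusted). DESeq2 and limma voom called 0 members as well. The groups did not overlap for 2 members, Kcns3 and Kcnj13, both higher in the isolated libraries (4.15% of all genes), and for 0 members lower (2.96%). Fold changes were above 0 for 41 members and below 0 for 40, with a median of 0.00, where that of all genes was 0.00.

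Kcns3 held 3.08, 4.27 and 3.34 CPM in the isolated and 2.65, 2.97 and 2.71 CPM in the group-housed BLA libraries, a log2 fold change of 0.37 ± 0.21 (SE, adjusted p = 1.00, edgeR). Kcnj13 held 0.681, 1.13 and 0.790 CPM against 0.635, 0.666 and 0.425 CPM (log2 fold change 0.64 ± 0.38, SE). Every isolated value of both genes lay above the group-housed values, at low levels for Kcnj13. Kcnh4, Kcna4, Kcnip2 and Kcnt1 had fold changes of 0.25, 0.17, 0.34 and 0.17 on the log2 scale, with overlapping groups. Isolated library 1 was the highest for each of them, and without it they were 0.13, 0.04, 0.01 and -0.02. Kcnip2, for example, held 185, 122 and 89.5 CPM against 121, 98.3 and 95.3 CPM. The striatal projection neuron markers, 10 of 10 with a fold change above 0, summed to 3219, 1720 and 1213 CPM against 2173, 1705 and 886 CPM, and their part was not tested. Below 0, the two-pore channel genes Kcnk5, Kcnk12 and Kcnk4 had log2 fold changes of -0.88, -0.35 and -0.31, Kcnh6 of -0.31, Kcnj14 of -0.37 and Kcnmb3 of -0.76, all with overlapping groups.

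Whether the responses to isolation differed was tested as the BLA log2 fold change minus the VTA one, over all 12 libraries. None of the 86 members passed (0% of 25009 genes, edgeR), 9 had an unadjusted p below 0.05 (14.9% of all genes), 1 above 0 (6.68%) and 8 below (8.23%), and DESeq2 and limma voom called 0 members. The median was -0.22, with 65 members below 0 and 21 above, beside -0.06 for all genes. With upper-quartile factors the members' median was -0.076, and that of all genes moved to 0.08. The smallest p-values belonged to Kcnt1, with a difference of 0.49 ± 0.17 (SE, adjusted p = 0.303, edgeR), and Kcns1, at -1.54, which was called, at -1.94, without isolated VTA library 2. Kcnk1 had a difference of -0.54 and Kcng1 of -3.41, the latter -1.75 without isolated VTA library 3.

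Partner proteins that bind or scaffold these channels were read from a list of 26 genes, of which 25 were tested in each comparison. Between regions 16 passed the test as higher in BLA (23.7% of all genes) and 5 as higher in VTA (24.1%). Dlg2 and Dlg4, scaffolds that anchor Kv1 and inward rectifier channels, had log2 differences of 1.40 and 0.95, and Rgs7bp, which tethers a regulator of G-protein-gated channels, 1.53. Abcc9, the sulfonylurea receptor paired with Kcnj8, was higher in VTA by 0.85 (log2 difference -0.85), beside Cntn2, an axonal adhesion protein of Kv1 clusters (-0.90), and Vapb, of a family that clusters Kv2 channels (-0.36). With isolation 0 partners passed in either region. In VTA 19 were above 0 and 6 below (49.8% of all genes were above 0), with a median of 0.13 that was 0.044 without isolated libraries 1 and 3. An unadjusted p below 0.05 was found for 8 (18.3% of all genes), and the groups did not overlap for 10 higher (17.4%) and 1 lower (11.6%). Gnb5 held 94.98, 93.1 and 111 CPM in the isolated against 78.6, 81.3 and 80.99 CPM in the group-housed libraries (log2 fold change 0.26). Lgi1 and Dlg4 had fold changes of 0.44 and 0.31, and Lrrc55, a BK channel gamma subunit, -0.32, each without overlap. In BLA 8 partners were above 0 and 17 below, where 50.8% of all genes were above 0.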

How the data were processed

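RNA from brain punches was sequenced in 12 libraries, 3 per group, grouped and numbered by their titles; the sex of each region's mice is in the series' design. Trizol extraction and a stranded, ribosome-depleted preparation are stated per the labels' protocols. The deposited values are raw counts per gene. Per the submitters' processing notes, cutadapt, TopHat2, HTSeq and the mm10 build were used; for tool versions, strandedness, annotation and paired reads, the choices were not given in the sources used here. Levels and tests used the per-sample tables, and the member rule was applied to the series table. The series table differs from the per-sample tables at 2 entries, none of them a member.

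The robust quasi-likelihood F test of edgeR 4.0.16 (R 4.3.3) was run with TMM factors on genes that passed filterByExpr at a count of 10 and a total of 15, with Benjamini-Hochberg adjustment over all genes tested and a threshold of 0.05. Isolation was tested within a region on its 6 libraries, with scaling factors over those 6, and the difference and the region contrast on all 12. Levels are CPM with factors over all 12 libraries, so a ratio of levels can differ slightly from a fitted fold change. Exon lengths come from GENCODE vM21 (GRCm38, the mm10 assembly), and promoter windows from RefSeq (GRCm38.p6).

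Named genes were the 6 smallest p-values per direction in an isolation comparison, the 4 smallest in the difference, the 8 largest called differences per direction between regions with a mean of at least 1 CPM in the higher region, the 6 highest per length, genes linked to a cell type, and up to 3 partners per direction. Other genes given, such as Kcnma1 or Ttr, illustrate a family, a marker list or a library and were picked after their values were seen. Members and lists were chosen with earlier results of these data known. Alternatives were DESeq2 1.42.0, limma 3.58.1 (voom, sample weights), upper-quartile and RLE factors, other filters, a replicate block, a threshold of 0.1, marker covariates and fits without single libraries or sets of libraries. The scripts were tested on simulated counts. Figures were drawn with matplotlib 3.10.9. Values of 2 members are not reported here.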

Additional observations from a re-analysis of the deposited data

How the results depend on the processing

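With 3 libraries per group the isolation comparisons resolve only changes that are large against the spread between libraries, and members below about 1 CPM rest on few counts. In VTA the number of members called was 0 in edgeR, 3 in DESeq2, and 0 to 4 when single libraries were left out, the 4 without isolated library 2. For the difference it was 0 to 1 when single libraries were left out, and in BLA 0 in every alternative. The members' median in VTA, 0.19, was 0.036 without isolated libraries 1 and 3, 0.077 with the choroid plexus covariate, 0.074 with the glutamatergic covariate, and 0.13 to 0.24 when single libraries were left out. The median of the difference, -0.22, was -0.076 with upper-quartile factors, and -0.30 to -0.15 when single libraries were left out. Between regions 54 to 67 members were called over all alternatives, 59 to 65 when single libraries were left out. Among the named genes, DESeq2 gave no adjusted p for Kcnh3 and Kcnj4 between regions or for Kcnk15 in VTA. The cause of these shifts was not tested.

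Over all genes, edgeR called 1 in VTA, DESeq2 485, edgeR without isolated library 2 1200 and edgeR without a filter 17. In BLA the counts were 0 in edgeR, 6 in DESeq2, 8 without a filter, 4 without isolated library 2 and 1 without the libraries rich in ribosomal RNA. For the difference they were 0, 142 in DESeq2, 487 without isolated VTA library 2, and 1 without isolated VTA library 1, without a filter and with the replicate block.

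Some fold changes of named genes changed sign, none of them called. In BLA, Abcc8 was -0.069 without the libraries rich in ribosomal RNA, Adam23 -0.058 without group-housed library 3 and Kcnt1 -0.018 without isolated library 1, within -0.018 to 0.25 when single libraries were left out. In VTA, with the glutamatergic covariate, Cntn2 was 0.017, Kcnh2 0.034, Kcnk3 0.11 and Kcnk9 0.11. Kcnk9 was 0.012 with the choroid plexus covariate, Kcns1 -0.030 without isolated libraries 1 and 3, and Kcnk2 0.026 without group-housed libraries 1 and 2, where the 1 group-housed library left is assumed to vary like the isolated ones. For the difference, Cntn2 was -0.12 in limma voom and -0.0062 without group-housed VTA library 3, within -0.0062 to 0.35 when single libraries were left out. Of 1239 values of named genes in alternatives 1205 kept direction and side of the threshold, 15 lost and 7 gained a call, and 12 changed sign.

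Replicate numbers are shared by the groups. Same-numbered libraries correlated in their deviations from the group means by 0.17, -0.03 and 0.00 in BLA and by -0.06, -0.03 and -0.02 in VTA. Differently numbered libraries correlated by -0.10 to 0.11 in BLA and by -0.06 to 0.10 in VTA. With 3 libraries per group these values cannot settle whether the numbers pair the libraries, and the main tests treated them as unpaired. With the replicate block 0 members were called in BLA, 0 in VTA, 0 for the difference and 65 between regions (45.7% of all genes).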

Other observations

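Some neighbouring potassium channel genes less than 100 kb apart differed in direction between regions, and others did not. Kcnj16 and Kcnj2, 38.2 kb apart on chromosome 11 and read from the same strand, had log2 differences, BLA over VTA, of -0.92 and 0.78, both called. Kcnj16 held 25.7 to 34.03 CPM in BLA and 50.7 to 63.6 CPM in VTA, and Kcnj2 34.4 to 55.7 CPM and 21.1 to 30.3 CPM. Kcna1 and Kcna6, 61.9 kb apart on chromosome 6, had log2 differences of 0.59 and 0.02, and Kcna3 and Kcna2, 63.1 kb apart on chromosome 3, of -0.10 and 0.04. Kcnmb1 lies inside the span of Kcnip1 on chromosome 11, on the other strand, and both were higher in VTA, with log2 differences of -1.63 and -0.86.

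Kcnn4, a calcium-activated channel of non-neuronal cells, held 0 to 0.284 CPM in BLA and 0.311 to 0.799 CPM in VTA, and Kcnv2, a silent subunit known from photoreceptors, 0 to 0.208 CPM and 0.238 to 0.542 CPM. Both entered the set through VTA, with 6 VTA libraries and 1 BLA library at the count minimum, so their direction is given as a description only. They were chosen after their values were seen.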
